A study of Mus musculus with 16 samples.

Results

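Expression of 10 maternally expressed imprinted genes of mouse chromosome 7 was examined in sorted cortical cells with uniparental paternal disomy on this chromosome. The genes were H19, Cdkn1c, Kcnq1, Phlda2, Slc22a18, Ube3a, Cd81, Tssc4, Ascl2 and Zim1. They were listed by name, as 10 of 53379 genes in the count tables, and the rule used no measured value, although earlier results of these data were known when the list was made. The questions were which of them were silent in such cells and which rose when Eed was lost.

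The cells came from the neocortex of mice at postnatal day 4, of strain CD1 by the labels and of a mixed background of C57BL/6 and CD1 by the study's methods, and were analysed by RNA-seq in 15 libraries with a group in the labels. Individual animals gave the replicates, and whether a lacZ+ and a lacZ- library of the same genotype and number came from 1 animal is not stated. All mice carried MADM7-GT/TG, Emx1-cre and XGFAP-lacZ. MADM (mosaic analysis with double markers) recombines homologous chromosomes in sparse dividing cells and thereby links color and genotype of each cell. Emx1-cre is active in progenitors of the dorsal telencephalon, and XGFAP-lacZ places lacZ under the human GFAP promoter to mark astrocytes. Green cells of wild-type mice were Eed+/+ and served as controls, and green cells of mice heterozygous for Eed were Eed-/-, the other cells of these mice being largely Eed+/-. GFP+/lacZ+ cells were collected as astrocytes (5 Eed+/+ and 5 Eed-/- libraries) and GFP+/lacZ- cells as neurons (2 Eed+/+ and 3 Eed-/- libraries). By the direction of the crosses, green cells of both genotypes had uniparental paternal disomy (patUPD) of chromosome 7, which covers the part beyond the MADM cassettes. The study places Eed distal to the cassettes but their own position is not stated in these sources, and it was not determined whether Zim1 and Ube3a, which are proximal to Eed, lie in that part. No library was sorted for cells with a maternal copy, so a low level cannot be assigned to the parental origin of the chromosome. Markers of microglia, erythroid cells or leptomeningeal fibroblasts were high in Eed-/- astrocyte replicates 1, 3 and 4. Whether cells without patUPD, which keep a maternal copy, gave reads to these or other libraries was not tested. In these bulk samples, fewer expressing cells and less RNA per cell cannot be told apart.

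Imprinted genes are expressed mainly or only from the copy inherited from a given parent. In the distal Kcnq1 domain the long non-coding RNA Kcnq1ot1, transcribed from the paternal copy, accompanies silencing of its neighbours in cis, and Polycomb repressive complex 2 (PRC2), which contains Eed and deposits H3K27me3, has been implicated in this silencing, above all in the placenta. H19 shares a control region with the paternally expressed growth factor gene Igf2. Ube3a differs from the others in that its paternal copy is silenced mainly in neurons, by the antisense RNA Snhg14, while glia use both copies. Imprinting of Cd81, Tssc4 and Ascl2 is best known from the placenta.

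The genes lie in 3 places on chromosome 7 (GRCm38, GENCODE release 21). Zim1 (chr7:6671269-6696450, minus strand) is proximal and Ube3a (chr7:59228750-59311536, plus strand) is central. The other 8 fall within 928 kb at the distal end, in the order H19 (chr7:142575529-142578143, minus), Ascl2 (chr7:142966829-142969264, minus), Cd81 (chr7:143052739-143067934, plus), Tssc4 (chr7:143069249-143071093, plus), Kcnq1 (chr7:143106362-143427042, plus), Cdkn1c (chr7:143458339-143461050, minus), Slc22a18 (chr7:143473736-143499334, plus) and Phlda2 (chr7:143501545-143503150, minus). H19 is a long non-coding RNA and the other genes code for proteins.

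RefSeq promoter sequences (250 bases before to 50 after the start, GRCm38.p6) matched 7 of the 10 genes, with no entry for H19, Cdkn1c and Kcnq1. Those of 5 genes are printed here, for the 3 genes with reads in nearly all libraries (Cd81, Tssc4 and Ube3a), for Phlda2, which had no read, and for Slc22a18, the matched gene with the fewest CpG dinucleotides. They run 5′ to 3′ on the gene's strand, and capitals mark CG, the dinucleotide that carries DNA methylation in mammals.
Cd81, chr7:143052500-143052799, plus strand: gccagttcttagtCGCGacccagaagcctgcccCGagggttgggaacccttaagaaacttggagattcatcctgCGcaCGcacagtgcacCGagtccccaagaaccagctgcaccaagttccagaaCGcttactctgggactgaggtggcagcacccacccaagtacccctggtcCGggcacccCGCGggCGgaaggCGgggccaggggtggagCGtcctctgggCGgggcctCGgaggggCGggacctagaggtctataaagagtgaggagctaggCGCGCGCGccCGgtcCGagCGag
Tssc4, chr7:143069118-143069417, plus strand: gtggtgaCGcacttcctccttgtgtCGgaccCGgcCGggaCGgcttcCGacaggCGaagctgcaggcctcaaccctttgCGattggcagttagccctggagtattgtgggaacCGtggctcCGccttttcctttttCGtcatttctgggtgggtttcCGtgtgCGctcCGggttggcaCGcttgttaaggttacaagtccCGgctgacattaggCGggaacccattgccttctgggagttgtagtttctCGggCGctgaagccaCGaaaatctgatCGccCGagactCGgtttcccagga
Ube3a, chr7:59228500-59228799, plus strand: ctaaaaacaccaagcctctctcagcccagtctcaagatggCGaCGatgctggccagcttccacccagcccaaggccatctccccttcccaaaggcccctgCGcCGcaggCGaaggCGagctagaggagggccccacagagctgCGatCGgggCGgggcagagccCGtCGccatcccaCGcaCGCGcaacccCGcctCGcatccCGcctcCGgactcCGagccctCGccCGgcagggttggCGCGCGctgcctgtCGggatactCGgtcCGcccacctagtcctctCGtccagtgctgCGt
Phlda2, chr7:143502475-143502774, minus strand: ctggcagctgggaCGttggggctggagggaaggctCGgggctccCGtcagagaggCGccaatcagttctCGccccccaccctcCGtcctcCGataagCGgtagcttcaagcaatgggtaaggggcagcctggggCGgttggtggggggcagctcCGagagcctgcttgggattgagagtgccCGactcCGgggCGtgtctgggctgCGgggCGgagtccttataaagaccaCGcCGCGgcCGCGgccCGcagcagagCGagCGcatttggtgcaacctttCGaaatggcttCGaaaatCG
Slc22a18, chr7:143473539-143473838, plus strand: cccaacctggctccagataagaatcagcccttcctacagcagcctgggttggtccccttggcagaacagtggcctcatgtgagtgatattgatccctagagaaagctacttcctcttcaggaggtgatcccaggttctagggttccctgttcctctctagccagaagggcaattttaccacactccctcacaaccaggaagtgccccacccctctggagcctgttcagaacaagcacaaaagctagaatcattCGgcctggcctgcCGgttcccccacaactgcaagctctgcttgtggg

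CG was counted on 1 strand, since it reads the same on the other. It occurred 23 times in the Cd81 window, 23 times in that of Tssc4, 29 times in that of Ube3a, 26 times in that of Phlda2 and 2 times in that of Slc22a18. The windows of Ascl2 (23) and Zim1 (20) are not printed. The median of all 32851 promoters of the same length was 7, and 43.5% of them held 10 or more. The number of CG therefore did not sort the genes by expression, as Phlda2, without a read, and Ascl2 and Zim1, with 12 and 7 reads over all libraries, had as many as or nearly as many as Cd81.

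Library quality and cell type markers bear on all values below. Reads assigned to genes ranged from 211736 to 3178529 per library and 26.1% to 76.6% of reads aligned uniquely. In all, 5 libraries had under 60% unique alignment or under 1000000 uniquely aligned reads and are called outside the limits: Eed+/+ astrocyte replicate 3, Eed-/- astrocyte replicates 1, 3 and 4, and Eed+/+ neuron replicate 2. Levels are given in CPM (counts per 1000000 gene reads, scaled with edgeR's TMM factors). For a gene without reads, 3 counts in a library correspond to between 1.12 and 9.36 CPM, a floor that covers counting error only, since amplified reads without molecular identifiers are not independent molecules. Eed itself, the targeted gene, averaged 6.29 ± 8.68 CPM over the 5 Eed-/- and 38.7 ± 26.4 over the 5 Eed+/+ libraries of astrocytes (SD) (two-sided exact permutation p = 0.0238). The groups overlapped, as Eed+/+ replicate 3 had 2 Eed reads (3.71 CPM, under its floor of 5.57) and Eed-/- replicates 2 and 5 were at 17.3 and 14.2 CPM. The counts cover the whole gene, not the deleted part alone. Within the limits Eed averaged 15.7 CPM in 2 Eed-/- and 47.5 in 4 Eed+/+ astrocyte libraries. Of the other PRC2 genes, which were not targeted, Suz12 was also lower in Eed-/- astrocytes, at 8.54 against 26.4 CPM (exact permutation p = 0.0397). By the same test p was 0.119 for Ezh2 (43.1 against 113 CPM) and 0.325 for Ezh1 (4.45 against 13.9). A lower mean was thus not particular to Eed. The mean of Eed in neurons was 29.3 ± 11.3 over 3 mutant and 73.0 ± 11.5 over 2 control libraries (SD) (exact permutation p = 0.200, the smallest possible).

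The cell type labels were checked with summed levels of marker genes. The 12 astrocyte markers summed to between 6435 and 40824 CPM in Eed+/+ astrocytes and between 2252 and 43052 in Eed-/- astrocytes, but also to 11630 and 24719 in Eed+/+ neurons and to between 9892 and 14514 in Eed-/- neurons. The 10 neuron markers summed to between 1183 and 2424 CPM in the 5 neuron libraries, within the range of 260 to 3570 in Eed+/+ astrocytes. Over all libraries the lacZ- ones were thus not set apart from the lacZ+ ones by these markers. Within the limits the astrocyte markers did separate them, with the lowest astrocyte library at 15663 CPM and the highest neuron library at 14514. By neuron markers they still overlapped there. After setting some samples aside, the study reported Aqp4 and Gfap as strongly enriched in astrocytes and Lrrn3 and Npm1 as much higher in neurons. The lacZ- libraries are called neurons here only as the labels do. In Eed+/+ neuron replicate 2, 7 of the 10 neuron markers had a read and summed to 1183 CPM, beside 10 of 10 and 1568 CPM in replicate 1, while Rbfox3 and Neurod6, which mark cortical neurons, were among those with 0 reads. Markers of other cell types were found in libraries on both sides of the limits. The 8 oligodendrocyte lineage markers summed to between 1336 and 5173 CPM in Eed+/+ astrocytes, to 4411 and 2960 in the 2 Eed-/- astrocyte libraries within the limits and to between 135 and 556 in the 3 outside them. In Eed-/- neurons they summed to between 2454 and 3824 CPM, above the neuron markers in each library, and in Eed+/+ neurons to 2859 and 1348. The part of these markers in the comparisons was not tested. The 3 Eed-/- astrocyte libraries outside the limits also held other markers, with microglia markers at 6488 CPM in replicate 1 and 2143 in replicate 3, erythroid markers at 5723 in replicate 1 and 7801 in replicate 4, and leptomeningeal fibroblast markers at 2108 in replicate 3.

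**Figure D1:**
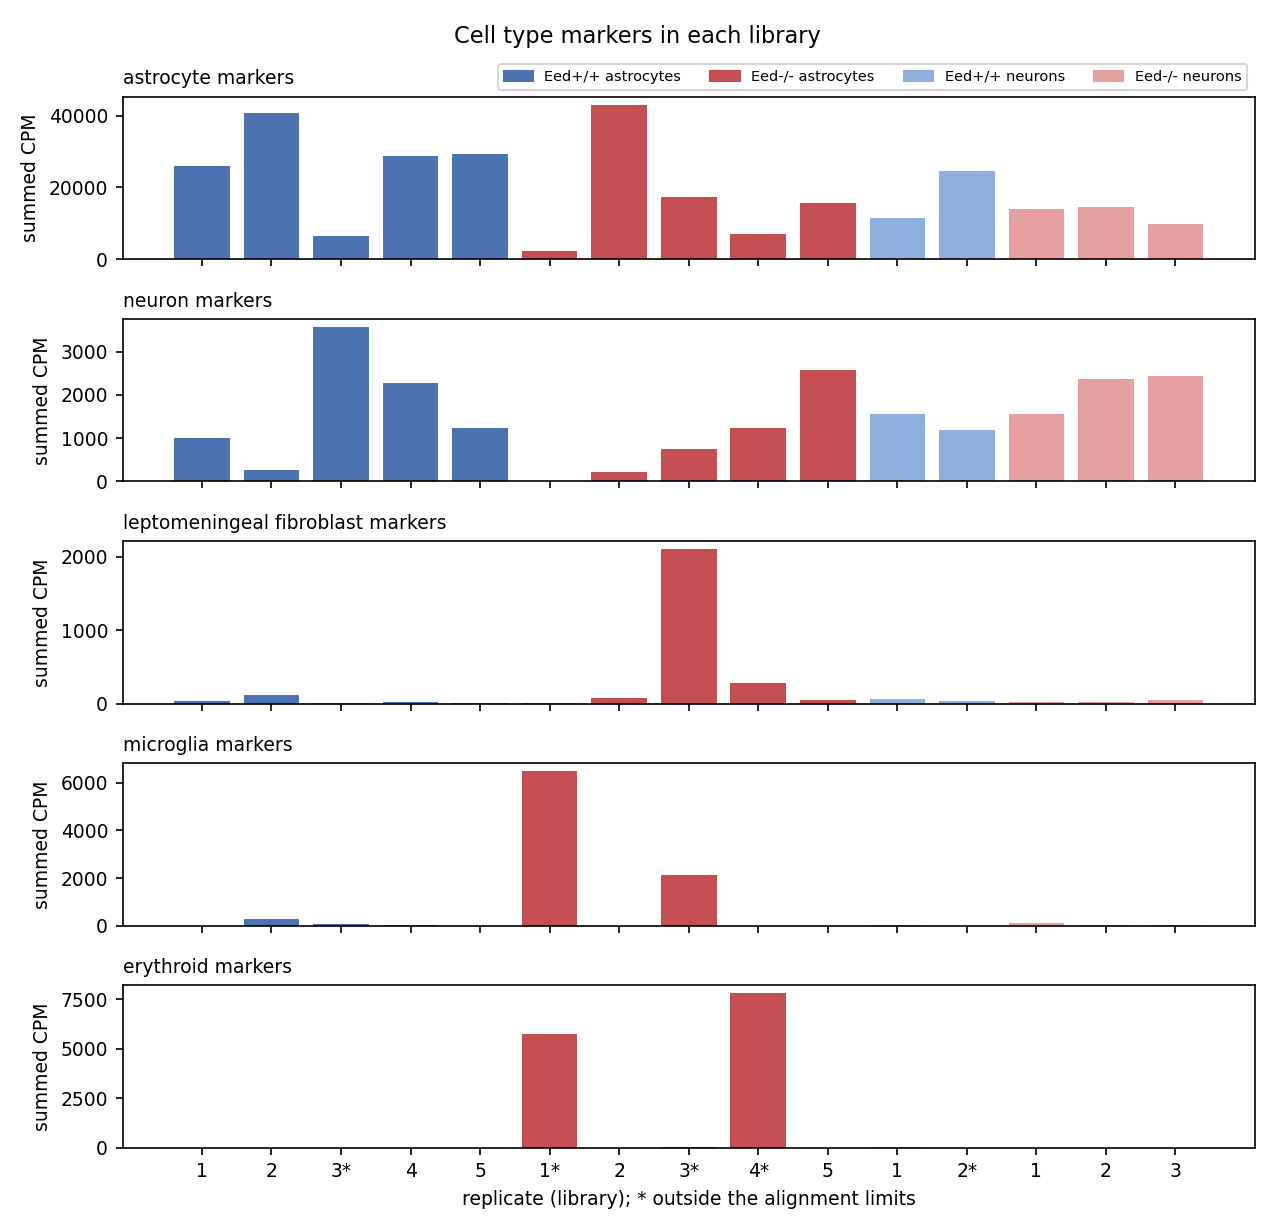
Summed TMM-scaled CPM (linear axes starting at 0) of 5 marker lists in each of the 15 libraries, 1 bar per library, colored by group; asterisks mark the 5 libraries outside the alignment limits. Astrocyte markers are present in the neuron libraries, and microglia, erythroid and leptomeningeal markers stand out in Eed-/- astrocyte replicates 1, 3 and 4.

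The 10 genes fell into 3 classes by the number of libraries in which they were found. Cd81, Tssc4 and Ube3a had reads in at least 14 of 15 libraries and held 99.3% of the 42319 reads of all members. H19, Cdkn1c, Kcnq1, Slc22a18, Ascl2 and Zim1 had 291 reads together, in at most 5 libraries each, and 19 of their 90 gene and library pairs held a read. Phlda2 had none. Of protein-coding genes in general, 21.7% (4736 of 21865) had no read in any of the 15 libraries.

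**Figure D2:**
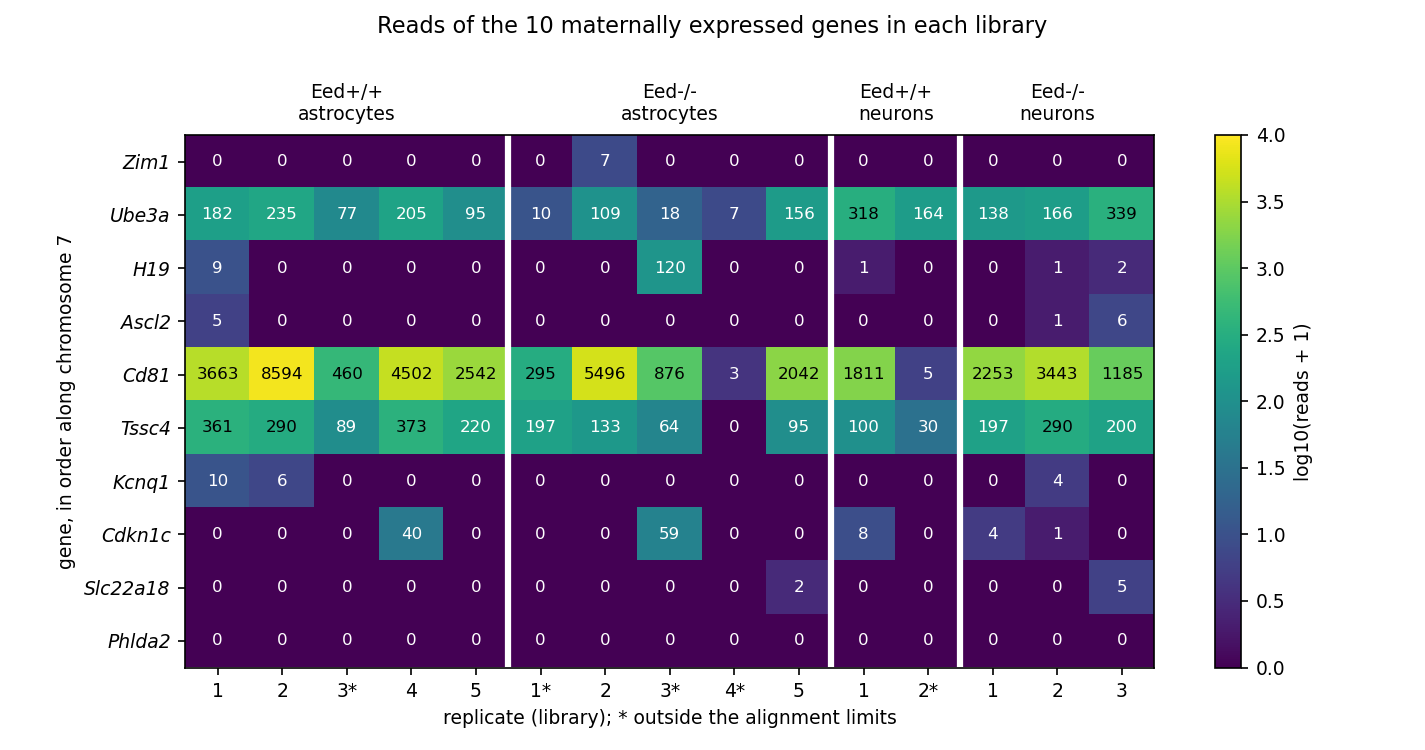
Reads of each gene (rows, in their order along chromosome 7) in each of the 15 libraries (columns, by group and replicate), with color giving log10(reads + 1); asterisks mark libraries outside the alignment limits. Cd81, Tssc4 and Ube3a fill their rows, while the other rows hold scattered reads, with 120 H19 and 59 Cdkn1c reads in Eed-/- astrocyte replicate 3.

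Genes that restrain growth were at 0 in most libraries. H19, the non-coding RNA of the Igf2 domain, was counted 9, 0, 0, 0 and 0 times in control astrocytes (Eed+/+, replicates 1 to 5) and 0, 0, 120, 0 and 0 times in mutant ones (Eed-/-). In neurons it had 1 and 0 reads in Eed+/+ and 0, 1 and 2 in Eed-/- libraries. The groups overlapped in both cell types, and 1 library, Eed-/- astrocyte replicate 3, held 90.2% of all H19 reads.

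Per gene read, H19 was 33.6 times as frequent in the Eed-/- as in the pooled Eed+/+ astrocyte libraries (120 against 9 reads, exact 95% interval 17.1 to 75.2 for counting error only). Without Eed-/- replicate 3 there were 0 reads against 9, a ratio of 0 with an upper limit of 1.42. Over 5 libraries each, mutant astrocytes averaged 70.8 ± 158 CPM and control astrocytes 0.943 ± 2.11 (SD). The exact permutation test gave p = 1, its only possible outcome when 1 library in each group of 5 holds reads, so it cannot decide. H19 had reads in too few libraries to pass the filter of the edgeR comparison of astrocytes. When genes were not filtered, or were kept at a mean count above 10, its edgeR log2 fold change was 5.93 (SE 2.03) and 6.11 (SE 1.98), with adjusted p = 0.296 and 0.281.

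Cdkn1c, which encodes the cyclin-dependent kinase inhibitor p57, was likewise found in single libraries. It had 0, 0, 0, 40 and 0 reads in Eed+/+ and 0, 0, 59, 0 and 0 in Eed-/- astrocytes. In neurons it had 8 and 0 reads in Eed+/+ and 4, 1 and 0 in Eed-/- libraries. The groups overlapped, and each astrocyte group had 1 library with at least 40 reads and 4 with none.

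The ratio per gene read was 3.72 in astrocytes (59 against 40 reads, interval 2.45 to 5.70), and without Eed-/- replicate 3 it became 0 (0 against 40 reads, upper limit 0.272). The single library thus set the direction for Cdkn1c as well. In neurons the ratio was 0.270 (5 against 8 reads, interval 0.0695 to 0.936), and its upper limit fell to 0.785 when the library outside the limits was left out. Without Eed+/+ replicate 1 the neuron counts were 5 against 0 reads and the direction of this ratio was lost. The exact permutation tests over libraries gave p = 1 for astrocytes and p = 0.800 for neurons. With reads in 1 library of each astrocyte group the astrocyte test had no other possible outcome, so it cannot decide.

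Eed-/- astrocyte replicate 3, which held both the H19 and the largest Cdkn1c count, was 1 of the 5 libraries outside the limits (403472 gene reads, 26.6% unique alignment). All 7 leptomeningeal fibroblast markers had at least 1 read in it, led by Dcn with 481, and their sum of 2108 CPM compared with 3.38 to 281 in the other Eed-/- and 9.28 to 113 in the Eed+/+ astrocyte libraries. Of 5 choroid plexus markers, Ttr had 44 reads there (130 CPM) and the other 4 had none, and the list summed to at most 34.6 CPM in any other library. Among genes with at least 50 reads in it, 13 of 1372 (0.948%), H19 among them, had at most 10% as many reads in all other astrocyte libraries together. The same count was 57 of 1774 in Eed-/- astrocyte replicate 1, 47 of 671 in replicate 4, and between 1 and 7 in the other astrocyte libraries. For neuron libraries, each set against the other neuron libraries, it was between 0 and 6. The Kcnq1 region gene Tnfrsf23 (15 reads) and Tspan32 (11 reads) were also found in Eed-/- astrocyte replicate 3 and in no other astrocyte library. In Eed+/+ astrocyte replicate 4, which held 40 Cdkn1c reads, the leptomeningeal sum was 22.6 CPM. The part of these features in the H19 and Cdkn1c counts was not tested. Whether these reads came from patUPD cells or from cells with a maternal copy was not tested either.

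Phlda2, a pleckstrin homology domain gene that limits placental growth, had 0 reads in every library. Over the groups this allows at most 0.307 and 0.773 CPM in control and mutant astrocytes and 1.41 and 0.608 CPM in control and mutant neurons (3 counts over the gene reads of the group). Phlda2 was therefore not detectable with or without Eed at this depth.

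The channel and transporter genes of the Kcnq1 domain were near the floor. Kcnq1, a voltage-gated potassium channel gene, had 10 and 6 reads in Eed+/+ astrocyte replicates 1 and 2 with none in the other 3, 0 reads in each of the 5 Eed-/- astrocyte libraries, 0 in both Eed+/+ neuron libraries and 0, 4 and 0 in Eed-/- neurons. The 16 against 0 reads in astrocytes give a ratio of 0 with an upper limit of 0.653 for counting error only. The exact permutation test over the 10 libraries gave p = 0.444, the smallest possible when 2 of them hold reads. Without Eed+/+ replicate 1 the upper limit was 1.68. Kcnq1 shares 121 of its 4093 exon bases (2.96%) with the antisense Kcnq1ot1, and without strand information reads from the pair cannot be told apart outside the annotated exons.

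Slc22a18, a gene of the organic cation transporter family, had 2 reads in Eed-/- astrocyte replicate 5, 5 reads in Eed-/- neuron replicate 3 and none in the 13 other libraries. All reads of Slc22a18 were thus in Eed-/- libraries, but 1 library held them in each cell type. The 5 against 0 reads in neurons leave the ratio unbounded above, with a lower limit of 0.396.

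The transcription factor genes gave the same picture. Ascl2, a basic helix-loop-helix factor needed in the placenta, had 5 reads in Eed+/+ astrocyte replicate 1, 1 and 6 reads in Eed-/- neuron replicates 2 and 3, and none elsewhere. In neurons 7 against 0 reads gave a lower limit of 0.622 for the ratio of Eed-/- to Eed+/+, which includes no difference. Zim1, a zinc finger gene next to the paternally expressed Peg3, had 7 reads, all in Eed-/- astrocyte replicate 2, a library within the limits. The 7 against 0 reads give a ratio with an exact lower limit of 3.63 for counting error only. The exact permutation test over libraries gave p = 1, its only possible outcome when 1 library alone holds reads, so it cannot decide. Without this library it had no read in any group, and at 4.65 CPM its single value stood beside 0 in the other 4 Eed-/- astrocyte libraries.

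With no filter on low counts, edgeR tested the 6 sparse genes in astrocytes as well, and none of the 6 was called, beside 5 of all 24464 genes tested (0.0204%). At an unadjusted p under 0.05 were 4 of the 6 (H19, Zim1, Slc22a18 and Kcnq1), beside 11.4% of all genes tested. The adjusted p was 0.391 for Zim1 (log2 fold change 3.54, SE 1.55), 0.411 for Slc22a18 (2.5, SE 1.23), 0.439 for Kcnq1 (−4.05, SE 2.06), and 0.498 for both Cdkn1c (3.08, SE 1.90) and Ascl2 (−2.71, SE 1.61). In neurons the 5 of them with a read had adjusted p between 0.778 and 0.951, and 127 of 23689 genes (0.536%) were called. None of these 5 was at an unadjusted p under 0.05, beside 6.14% of all genes tested. Fitted fold changes of genes at 0 in most libraries depend on the prior count of the fit.

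Cd81, Tssc4 and Ube3a were expressed in cells of both genotypes. Cd81, a tetraspanin of the cell surface, had 3663, 8594, 460, 4502 and 2542 reads in Eed+/+ astrocytes, at 1918, 3208, 854, 2077 and 1760 CPM. Mutant astrocytes held 295, 5496, 876, 3 and 2042 Cd81 reads, at 499, 3653, 2586, 9.27 and 2065 CPM. The ranges overlapped, with the highest and the lowest astrocyte values both in Eed-/- libraries.

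In Eed+/+ neurons Cd81 had 1811 and 5 reads (972 and 15.6 CPM), and in Eed-/- neurons it had 2253, 3443 and 1185 reads (1762, 1767 and 746 CPM). The groups overlapped, since Eed+/+ replicate 1 lay above Eed-/- replicate 3. The 5 reads came from Eed+/+ neuron replicate 2 and the 3 reads from Eed-/- astrocyte replicate 4, both outside the limits.

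Tssc4, which encodes a protein of the U5 spliceosomal particle, had 361, 290, 89, 373 and 220 reads in Eed+/+ astrocytes (189, 108, 165, 172 and 152 CPM). Mutant astrocytes held 197, 133, 64, 0 and 95 reads (333, 88.4, 189, 0 and 96.1 CPM). The Eed+/+ libraries lay within the Eed-/- range.

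In neurons Tssc4 had 100 and 30 reads in Eed+/+ (53.7 and 93.6 CPM) and 197, 290 and 200 reads in Eed-/- libraries (154, 149 and 126 CPM). Here the groups did not overlap, with all 3 Eed-/- neuron libraries above both Eed+/+ ones.

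Ube3a, the E3 ubiquitin ligase gene of Angelman syndrome, had 182, 235, 77, 205 and 95 reads in Eed+/+ astrocytes (95.3, 87.7, 143, 94.6 and 65.8 CPM). Mutant astrocytes held 10, 109, 18, 7 and 156 reads (16.9, 72.5, 53.1, 21.6 and 158 CPM). The 3 lowest values were those of the Eed-/- libraries outside the limits, and the highest was also an Eed-/- library.

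In Eed+/+ neurons Ube3a had 318 and 164 reads (171 and 512 CPM) and in Eed-/- neurons 138, 166 and 339 reads (108, 85.2 and 213 CPM). Eed-/- replicate 3 lay above Eed+/+ replicate 1, so the groups overlapped. Ube3a had reads in all 15 libraries. Snhg14 overlaps 1803 of its 20626 exon bases (8.74%) on the other strand, and counting without strand cannot separate reads of the pair elsewhere in the gene.

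**Figure D3:**
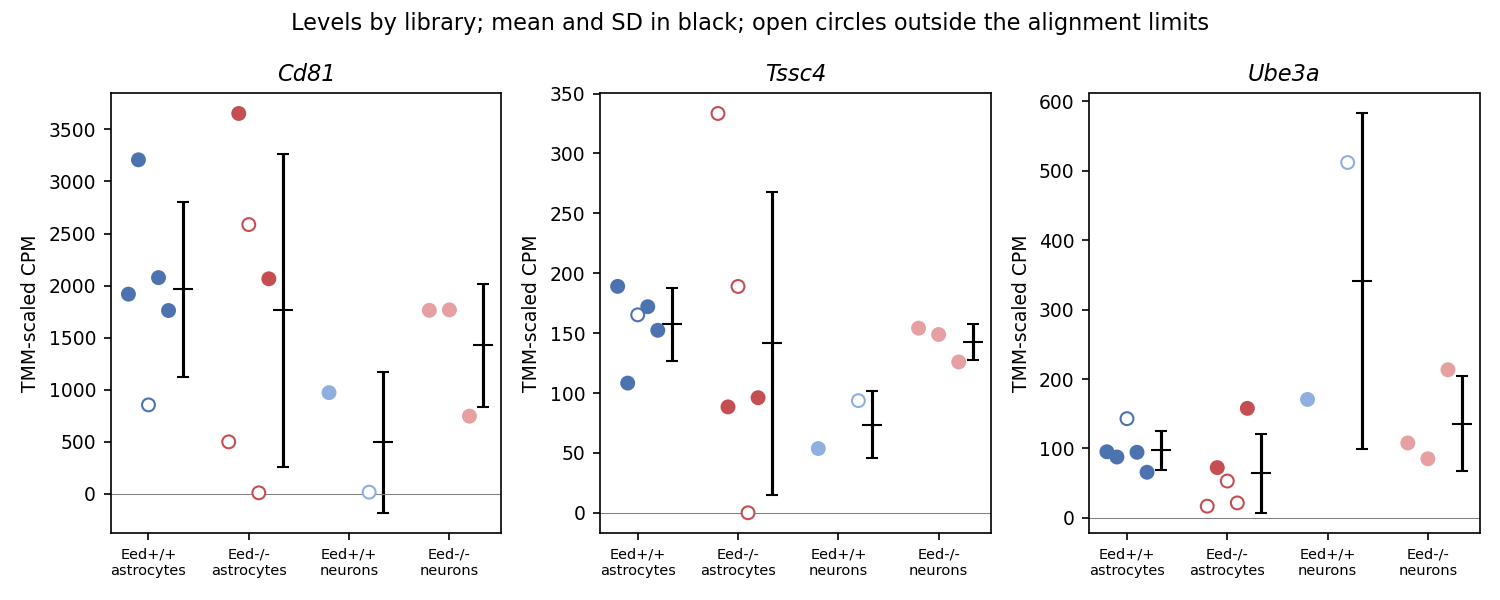
TMM-scaled CPM of Cd81, Tssc4 and Ube3a in each library (circles; open circles are libraries outside the alignment limits) by group, with mean and SD in black (n = 5, 5, 2 and 3; linear axes). The genotypes overlap in each panel except for Tssc4 in neurons.

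For loss of Eed in astrocytes, none of the 3 genes of the list that passed the filter was called by edgeR, nor was any of the 8956 genes tested (0, or 0%), while 108 of them (1.21%) lay under 0.05 before adjustment. The 1 gene that DESeq2 called was not on the list. The log2 fold change was −0.10 (SE 0.87) for Cd81, −0.06 (SE 1.28) for Tssc4 and −0.54 (SE 1.41) for Ube3a, with adjusted p = 1.00 for each. The median of the 3 was −0.10, beside −0.54 over all genes tested. Relative to that overall shift, Cd81 and Tssc4 stood at 0.44 and 0.47 and Ube3a at −0.0068. Within the limits (2 against 4 libraries) Cd81 and Ube3a changed sign, to 0.36 and 0.43, and Tssc4 moved to −0.74 (adjusted p = 1.00). The 2 Eed-/- libraries then held 88.4 and 96.1 CPM of Tssc4, below the 4 Eed+/+ ones at 108 to 189, beside 4.82% of all genes with a read that were lower and 4.24% that were higher without overlap in these 6 libraries.

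None of the 9 genes of the list with a read in astrocytes had non-overlapping genotypes, beside 0.0164% (higher in Eed-/-) and 0.830% (lower) of all genes with a read. The exact permutation p was 0.262 for Ube3a, 0.778 for Tssc4 and 0.794 for Cd81, where 0.00794 was the smallest possible. The means were 64.4 ± 57.0 and 97.3 ± 28.2 CPM for Ube3a, 141 ± 126 and 157 ± 30.5 for Tssc4, and 1763 ± 1501 and 1963 ± 842 for Cd81 (Eed-/- and Eed+/+, SD, n = 5 each). For these 3 genes the differences were smaller than the SD of the Eed-/- libraries, and for Ube3a the difference (32.9 CPM lower) was larger than the SD of the Eed+/+ libraries.

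In neurons edgeR called none of the same 3 genes and 0 of 11862 in all (0%), and 862 (7.27%) had an unadjusted p under 0.05. None of the 26 genes that DESeq2 called was on the list. The log2 fold change of Ube3a was −1.49 (SE 0.70, unadjusted p = 0.0543, adjusted p = 0.686), that of Cd81 1.49 (SE 1.13, adjusted p = 0.764) and that of Tssc4 0.85 (SE 0.64, adjusted p = 0.764). Their median was 0.85, beside 0.15 over all genes tested. Tssc4 was the 1 gene of the list whose genotypes did not overlap, with means of 143 ± 15 CPM over 3 mutant and 73.6 ± 28.3 over 2 control libraries (SD; exact permutation p = 0.200, the smallest that 3 against 2 libraries allow). Of all genes with a read in neurons, 11% did not overlap with the Eed-/- libraries higher and 5.48% with them lower.

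The neuron values turned on the Eed+/+ replicates. Without replicate 2, the library outside the limits, the log2 fold change was −0.37 for Ube3a, 0.53 for Cd81 and 1.38 for Tssc4, with adjusted p = 1.00 each. Without replicate 1 it was −2.07 for Ube3a and 6.37 for Cd81, both past the threshold. The sole control then was replicate 2, the library with 31.0% unique alignment and 5 Cd81 reads. All of the spread in that fit came from the Eed-/- libraries. The log2 fold change of Tssc4 ranged from 0.47 to 1.38 with a library left out.

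**Figure D4:**
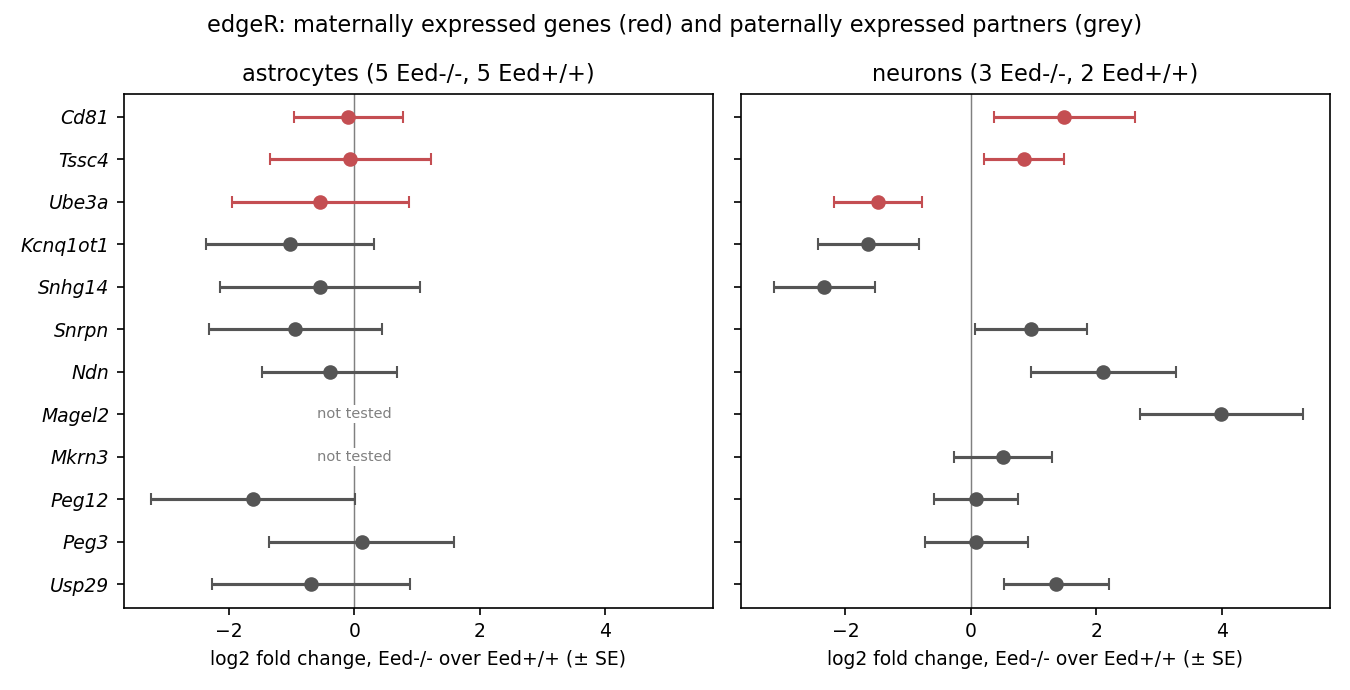
edgeR log2 fold changes (Eed-/- over Eed+/+) with SE for the maternally expressed genes that passed the filter (red) and their paternally expressed partners (grey), in astrocytes (left) and neurons (right). No adjusted p reached 0.05 in either panel, and the bars of the 3 maternally expressed genes cross 0 in astrocytes.

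The difference between the genotype effects of both cell types was tested as an interaction over all 15 libraries. edgeR called 7 of 13367 genes (0.0524%, and 3.61% at an unadjusted p under 0.05), none of them on the list. The interaction (astrocytes minus neurons, log2) was 0.76 (SE 1.99) for Ube3a, −1.68 (SE 1.5) for Cd81, −1.09 (SE 2.01) for Tssc4 and 4.19 (SE 2.71) for Cdkn1c, with adjusted p = 1.00 each. For Cd81 it was −0.71 without Eed+/+ neuron replicate 2 and −6.69 without replicate 1, and for Ube3a −0.26 and 1.31. For Tssc4 it was −1.76 without Eed-/- astrocyte replicate 1. For Cdkn1c it was −4.17 within the limits and −0.57 to 5.99 with a library left out.

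Cell types were compared within each genotype. Between Eed+/+ astrocytes and Eed+/+ neurons edgeR called 1 of 13367 genes (0.00748%, and 2.29% unadjusted), which was not on the list. Ube3a was lower in all 5 astrocyte libraries (97.3 ± 28.2 CPM, SD, n = 5) than in both neuron libraries (341 ± 241, SD, n = 2), a log2 difference of −1.82 (SE 1.42). Tssc4 was higher in all 5 (157 ± 30.5 against 73.6 ± 28.3 CPM), a log2 difference of 1.09 (SE 1.59). For both, edgeR's adjusted p was 1 and the exact permutation p was 0.0952, the smallest possible. These were 2 of the 7 genes of the list with a read, while 6.6% of all genes with a read were lower without overlap and 2.34% higher. Cd81 (1.99, SE 1.24) and Cdkn1c (0.57, SE 2.06) overlapped between the cell types. These differences turned on the Eed+/+ neuron replicates. Without replicate 2 that of Cd81 was 1.00 and that of Ube3a −0.82, and without replicate 1 they were 6.98 and −2.38. That of Cdkn1c ranged from −0.18 to 5.30 with a library left out, and its 40 reads in Eed+/+ astrocytes were all in replicate 4.

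Between Eed-/- astrocytes and Eed-/- neurons edgeR called 8 of 13367 genes (0.0598%, and 7% unadjusted), none of them on the list. Cdkn1c had the largest log2 difference of the 4 genes tested, 4.77 (SE 2.17, unadjusted p = 0.0281, adjusted p = 0.559), with all 59 astrocyte reads in replicate 3. Within the limits, which leave that library out, it was −4.11. Ube3a (−1.06, SE 1.29), Cd81 (0.31, SE 0.97) and Tssc4 (−0.0029, SE 1.30) had adjusted p of at least 0.992. None of the 9 genes with a read was free of overlap, beside 0.201% (higher in astrocytes) and 8.78% (lower) of all genes. The comparisons between cell types share the libraries of the genotype comparisons and are not independent of them.

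Levels of different genes were compared per kilobase of exon. In Eed+/+ astrocytes Cd81 was at 682 ± 292 CPM per kb, Tssc4 at 85.3 ± 16.5 and Ube3a at 4.72 ± 1.37 (SD, n = 5), and their libraries did not overlap between these genes. Cdkn1c (1.81 ± 4.05), H19 (0.383 ± 0.857), Kcnq1 (0.365 ± 0.563) and Ascl2 (0.323 ± 0.721) followed, with SDs above their means, and they do not differ beyond this spread. In Eed-/- neurons the order was Cd81 (495 ± 204 CPM per kb, SD, n = 3), Tssc4 (77.5 ± 8.13) and Ube3a (6.57 ± 3.32), again without overlap between these genes, and the remaining genes were at 0.881 or less.

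In Eed-/- astrocytes Cd81 was at 612 ± 521 CPM per kb, Tssc4 at 76.6 ± 68.5, H19 at 28.8 ± 64.4, Cdkn1c at 17.1 ± 38.2 and Ube3a at 3.12 ± 2.76 (SD, n = 5). Libraries of the 3 expressed genes overlapped there, as Cd81 was at 3.22 and Tssc4 at 0 in replicate 4. The places of H19 and Cdkn1c above Ube3a rested on replicate 3. In Eed+/+ neurons Cd81 was at 171 ± 235, Tssc4 at 39.9 ± 15.3 and Ube3a at 16.5 ± 11.7 (SD, n = 2), where Cd81, at 338 and 5.42 CPM per kb, overlapped both other genes. Over all 15 libraries the mean level per kb of Cd81 lay above that of 99.8% of protein-coding genes, that of Tssc4 above 97.2% and that of Ube3a above 71.2%. On this measure H19 (9.79 CPM per kb, above 78.7%) and Cdkn1c (6.56, above 72.3%) lay above Ube3a (6.13), largely through the library with 120 and 59 of their reads. The remaining 5 were at 0.284 CPM per kb or less.

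The paternally expressed partners in the same domains were examined next. Kcnq1ot1, the antisense RNA of the Kcnq1 domain, had 190, 289, 263, 137 and 78 reads in Eed+/+ and 13, 16, 83, 0 and 110 in Eed-/- astrocytes, and 183 and 178 in Eed+/+ and 138, 106 and 307 in Eed-/- neurons. Snhg14, the antisense partner of Ube3a, had 32, 52, 20, 47 and 44 reads in Eed+/+ and 0, 13, 3, 4 and 51 in Eed-/- astrocytes, and 245 and 104 in Eed+/+ and 54, 24 and 152 in Eed-/- neurons. In CPM the genotypes overlapped for Kcnq1ot1 in both cell types and for Snhg14 in astrocytes, where the highest and the lowest Snhg14 values were both in Eed-/- libraries. In neurons Snhg14 did not overlap, at 131 and 325 CPM in Eed+/+ and at 42.2, 12.3 and 95.7 CPM in Eed-/- libraries, beside 5.48% of all genes with a read whose neuron libraries were all lower in Eed-/-.

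Of the 12 partners, 7 were tested in astrocytes, with log2 fold changes from −1.62 to 0.12 and a median of −0.69, and 0 were called (0 at an unadjusted p under 0.05). In neurons 9 were tested, from −2.34 to 3.99 with a median of 0.51, beside 0.15 over all genes tested. Of these 9, 0 were called and 2 were at an unadjusted p under 0.05, beside 7.27% of all genes tested. Snhg14 (−2.34, SE 0.80, adjusted p = 0.646) and Magel2 (3.99, SE 1.30, adjusted p = 0.644), a gene of the Prader-Willi domain, had an unadjusted p under 0.05 there, and Kcnq1ot1 was at −1.63 (SE 0.80, adjusted p = 0.686). Ube3a and Snhg14 thus had fold changes of the same sign in neurons, neither of which passed the test. Igf2, the partner of H19, had between 0 and 14 reads in each library, 6 of them in Eed-/- astrocyte replicate 3. Ins2 and Snurf were listed at 0 in all 15 libraries.

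Of 14 further neighbours of the H19 and Kcnq1 regions, 4 were tested in astrocytes, with log2 fold changes from −2.23 to −0.25, and 7 in neurons, from −1.08 to 0.95, and 0 were called in either (0 at an unadjusted p under 0.05 in both). Nap1l4, a histone chaperone gene beyond Phlda2, had reads in every library, between 24 and 776, while Tnni2, a troponin gene, had none in any.

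By a fixed rule, the genes most like each expressed member were sought by Pearson's r of log2(CPM + 1) over the 10 libraries within the limits, among 13351 genes. The values describe these libraries, whose points share depth and cell composition, and carry no test. For Ube3a they were Brd1 (0.956), Wdr11 (0.952) and Ppp4r2 (0.952). For Cd81 they were Tmem9 (0.981), Por (0.98) and Itm2b (0.977). For Tssc4 the values were lower, with Sumf1 at 0.877, Pfkl at 0.863 and Tmem151a at 0.847.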

How the data were processed

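Full-length cDNA libraries were made by the authors with the Smart-Seq v2 protocol from few sorted cells of single animals, sequenced, and aligned with STAR to mm10 (GRCm38). The deposited values are raw counts of reads per gene, and the unstranded column was used because each library had 46.7% to 52.7% of its stranded reads on the first strand. Of the uniquely aligned reads, between 0.934% and 5.66% were set aside as ambiguous and between 8.55% and 71.6% overlapped no annotated exon. The 4 lines of totals in each file were left out of all sums. Which annotation release the authors used is not given in the sources used. Names, exon lengths and positions came from GENCODE release 21 (53274 of 53379 identifiers matched). Per the study's methods some libraries of this experiment were set aside without being named, so all 15 with a group were kept. A further library, whose labels name both cell types, entered no comparison.

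Genes were tested with edgeR 4.0.16 (R 4.3.3; TMM, filterByExpr, robust quasi-likelihood, two-sided, Benjamini-Hochberg over all genes tested, threshold 0.05), within each cell type for genotype and over 15 libraries for cell types and the interaction. The scripts were tested on simulated counts, with less spread than was estimated for the astrocyte libraries and for all 15 together. The list genes were also compared by two-sided exact permutation of TMM-scaled CPM over libraries, in 33 tests, of which 0 had p at or under 0.05, given unadjusted. Ratios of summed reads carry exact conditional intervals at 95%. Alternatives were RLE factors, DESeq2 1.42.0, limma 3.58.1 voom with sample quality weights, other filters, the alignment limits, single libraries left out, a replicate block, a covariate for the run of library numbers in the astrocyte comparison, and a fit over all 15 libraries. Figures and levels were made with Python 3.11.15. All 10 members are named, with partners, neighbours and the 3 genes most like each member found in at least 8 of the 10 libraries within the limits. The members and lists were chosen with earlier results of these data known.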

Additional observations from a re-analysis of the deposited data

Results flagged for a closer look

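In a group of 5 libraries a value was singled out when its gap to the nearest other library exceeded 0.71 of the range of the group (Dixon's criterion), which chance gives in about 1 of 20 groups. Of 14 groups of the astrocyte libraries with a read, 7 met it, each with 1 library above the others. For H19 these were Eed+/+ astrocyte replicate 1 at 4.71 CPM (9 reads) and Eed-/- astrocyte replicate 3 at 354 CPM (120 reads). For Cdkn1c they were Eed+/+ replicate 4 at 18.5 CPM (40 reads) and Eed-/- replicate 3 at 174 CPM (59 reads). Slc22a18 stood at 2.02 CPM (2 reads) in Eed-/- replicate 5, Ascl2 at 2.62 CPM (5 reads) in Eed+/+ replicate 1 and Zim1 at 4.65 CPM (7 reads) in Eed-/- replicate 2. In each of the 7 groups the other 4 libraries had 0 reads, so that any library with a read meets the criterion.

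The library without a group was not used in any comparison. Its Cd81 level, 2926 CPM without TMM scaling, lay above the highest Eed+/+ library (2704 CPM), and its Tssc4 level of 614 CPM lay above the highest Eed+/+ library (186 CPM). Its labels give it as Eed-/-, and on the same scale Eed-/- astrocyte libraries reached 2907 CPM for Cd81 (replicate 2) and 514 for Tssc4 (replicate 1). They rest on 648 and 136 reads of 221456 gene reads, with 17.7% of reads uniquely aligned.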

How the results depend on the processing

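Genes of the list were called under 1 alternative, in neurons without Eed+/+ replicate 1 (Ube3a and Cd81, given above). Of 351 values of the 18 fold changes given here, 310 kept their direction and their side of the threshold, 39 changed sign and 2, those of this alternative, passed the threshold. The cause of these changes was not tested.

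Counts of genes called over the whole table moved more. For astrocytes (0) they were 1 with DESeq2, 5 with no filter, 24 at a mean count above 10, 46 in 1 fit over 15 libraries, and 0 to 1 with a library left out. For neurons (0) they were 26 with DESeq2, 127 with no filter, 1 within the limits, 3 in the fit over 15 libraries, and 0 to 2601 with a library left out. For Eed+/+ astrocytes against Eed+/+ neurons (1) they were 6 with RLE, 8 with DESeq2, 0 with voom, 2 with no filter, 3 at a mean above 10, 0 within the limits, and 0 to 5. For the Eed-/- cell types (8) they were 1 with voom, 3 with no filter, 13 at a mean above 10, 0 within the limits, and 0 to 26. For the interaction (7) they were 21 with RLE, 0 with voom, 2 with no filter, 0 within the limits, and 1 to 12. Permutation tests at or under 0.05 numbered 0, and 0 to 1 with a library left out.

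Signs changed as follows. In the astrocyte comparison Ube3a was at 0.43 within the limits, Cd81 at 0.024 with RLE, 0.024 with DESeq2 and 0.36 within the limits, and Tssc4 at 0.47 with RLE and 0.47 with DESeq2. With a library left out, Cd81 ranged from −0.49 to 0.21 and Tssc4 from −0.71 to 0.24. Between Eed+/+ cell types Cdkn1c was at −1.42 with voom, and −0.18 to 5.30 with a library left out. Between Eed-/- cell types Cd81 was at −0.21 with voom and −0.15 to 0.64 with a library left out, Tssc4 at 0.65 with RLE, 0.65 with DESeq2, 0.072 at a mean above 10 and −0.60 to 0.31, and Cdkn1c at −4.11 within the limits. In the interaction Cdkn1c was at −4.17 within the limits and −0.57 to 5.99 with a library left out, and Ube3a at −0.26 to 1.31.

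Correlations of the deviations of same-numbered replicates were −0.26 to 0.17 and gave no sign of pairing, but whether such libraries of the 2 cell types share an animal is not known. With a replicate block the counts of genes called were 0 in astrocytes, 0 in neurons, 0 between Eed+/+ and 5 between Eed-/- cell types, and 2 for the interaction, with Cdkn1c at −4.16 between Eed+/+ and Tssc4 at 0.33 between Eed-/- cell types. In 33 genotype and cell type tests by permutation, 3 against 2 and 5 against 2 libraries cannot reach 0.05. Nor, in the astrocyte genotype comparison, can genes with reads in at most 2 libraries.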

Other observations

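The library without a group came from Eed-/- green cells, and its labels name astrocytes in the title and neurons as the cell type. In it Ube3a had 26 reads (117 CPM without TMM scaling), and H19, Cdkn1c, Kcnq1, Phlda2, Slc22a18, Ascl2 and Zim1 had 0 reads, which allows up to 13.5 CPM each. The 12 astrocyte markers summed to 33948 CPM, with reads for 9, and the 10 neuron markers to 9.03 CPM, with reads for 2.

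Of 4180 genes with 50 to 300 reads over the 15 libraries, 12.9% had at least 50% of them in 1 library and 2.58% had at least 90% there. Cdkn1c, with 112 reads, had 52.7% in 1 library, and H19, with 133 reads, had 90.2%.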
